A study of Mus musculus with 6 samples.

Results

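Expression of 10 chemokine-system genes was described across the cell populations of mouse back skin that were labelled through VE-cadherin. The genes were the CC ligands *Ccl2*, *Ccl7*, *Ccl8* and *Ccl11*, the CXC ligands *Cxcl1*, *Cxcl2*, *Cxcl12*, *Cxcl14* and *Cxcl16*, and the atypical receptor *Ackr3*. They were found by symbol among the 32285 genes of the deposited tables, and all 10 were present. Another 52 chemokine ligands and receptors were measured beside them.

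Chemokines are small secreted proteins that direct the movement of leukocytes and other cells through G protein-coupled receptors. CC ligands such as those studied here mainly attract monocytes, macrophages and eosinophils, whereas *Cxcl1* and *Cxcl2* attract neutrophils and *Cxcl12* acts through *Cxcr4* on stem cells, lymphocytes and vessels. Atypical receptors such as *Ackr3* bind chemokines without the usual signalling and remove them from the tissue, so that the level of ligand around a cell depends on its producers and on its scavengers.

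The study sorted tdTomato+ cells from dorsal skin after recombination by *Cdh5*-CreERT2, a Cre that acts in cells transcribing the VE-cadherin gene, and measured their RNA by droplet scRNA-seq, in which each captured mRNA carries a unique molecular identifier (UMI). WT telogen mice were collected at postnatal day (PD) 20 and WT anagen mice at PD 32. Both WT groups were on a C57BL/6;CD1 background and carried tdTomato, *Cdh5*-CreERT2 and *Krt14*-H2BGFP, the last marking epidermal nuclei. The Alk1 KO telogen mice, collected at PD 25, were C57BL/6 and carried Alk1 flox/flox, tdTomato and *Cdh5*-CreERT2. All mice received tamoxifen at PD 17 at 200 µg per g. Each group held 2 mice and 2 libraries, named S1 and S2, so the p-values of the stage and KO comparisons within a population rest on the spread between 2 mice a group, and an exact test of 2 against 2 cannot go below 0.333. The genotype field of the KO samples reads wild type, while their titles and descriptions give the floxed Alk1 genotype, and the latter was used. The paper describes the KO libraries as a data set that its authors had made before. Age, strain, the *Krt14*-H2BGFP allele and the data set differ together with the KO and cannot be told apart from it. The deletion covers every cell type that transcribed *Cdh5*, so it is not limited to one vessel type. *Acvrl1*, which encodes Alk1, was at 156 and 131 CPM (UMIs scaled to 1e6 per sum) in the endothelial cells (ECs) of the WT telogen mice and at 118 and 96.9 CPM in those of the KO mice. These sums cover EC populations whose shares differ between the groups. In arterial ECs it was at 316 and 279 CPM in WT telogen and 313 and 260 CPM in the KO. In the capillary ECs named Cap-Kdr below it was at 215 and 171 CPM, and 106 and 109 CPM. Whether the counted end of the transcript lies outside the deleted part was not given in the sources used here, so this level is no check of the deletion.

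The 6 libraries held 10615358 to 43317677 UMIs, with the KO libraries the shallowest, and 20941 cells passed the limits of 200 to 5000 genes and under 10% mitochondrial UMIs. Pairs of libraries shared 1 to 8 cell barcodes, at most 0.234% of the smaller library. Clusters were named from marker genes that included no chemokine gene: 7 EC populations (Artery, Vein, the capillary populations Cap-Kdr and Cap-Rgcc, the collecting and capillary lymphatics Lymph-Col and Lymph-Cap, and Proliferative), perineurial-like cells of the nerve sheath, pericyte-like, Schwann-like, fibroblast-like and immune-like cells. In the WT libraries *Cdh5* was at 1089 to 1290 CPM in Cap-Kdr and 376 to 459 CPM in Lymph-Cap, but also at 190 to 246 CPM in perineurial-like cells, which had little of the EC marker Pecam1 (11.3 to 53.5 CPM). It was at 20.4 to 39.9 CPM in fibroblast-like and 10.7 to 39.3 CPM in immune-like cells, so the sort also held cells with little *Cdh5* RNA. Each marker was highest in its own population except in Cap-Rgcc, where this held for 7 of 9. The clusters were named by the same markers in the same counts, so this is a description and no test of the names. Immune-like cells were whole clusters named from immune markers, with *Ptprc* at 485 to 587 CPM in the WT libraries. They made up 29.1% and 42.6% of the WT telogen libraries, 6.39% and 1.78% of the WT anagen libraries, and 3.85% and 6.79% of the KO libraries. The level of immune markers in the other populations is therefore given beside the results it moves with.

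The 10 genes lie on 5 chromosomes of GRCm38, and all are protein-coding. *Ccl2* (chr11:82035571-82037453), *Ccl7* (chr11:82045712-82047525), *Ccl11* (chr11:82057823-82062955) and *Ccl8* (chr11:82115185-82116799) are neighbours on the plus strand of chromosome 11, and *Cxcl16* (chr11:70453983-70459984) is on the minus strand of the same chromosome. *Cxcl1* (chr5:90891241-90893115) and *Cxcl2* (chr5:90903871-90905938) are neighbours on the plus strand of chromosome 5. *Cxcl12* lies at chr6:117168535-117181367 and *Ackr3* at chr1:90203980-90216751, both on the plus strand, and *Cxcl14* at chr13:56288643-56296551 on the minus strand. RefSeq promoter sequences (GRCm38.p6) were at hand for 6 of the 10 genes. The 250 bases before the start of transcription in RefSeq, which for *Cxcl1* and *Cxcl2* lies downstream of the start of the gene in the positions above, are shown 5′ to 3′ for the neutrophil attractants *Cxcl1* (chr5:90890995-90891244) and *Cxcl2* (chr5:90903649-90903898), which share a stretch, and for *Cxcl12* (chr6:117168285-117168534), the gene with the clearest differences below. Capitals mark the match to the NF-kappa-B consensus in *Cxcl1* and *Cxcl2*, and the match to GGCGCC, a motif bound by BMP-regulated Smad proteins, in *Cxcl12*.
Cxcl1: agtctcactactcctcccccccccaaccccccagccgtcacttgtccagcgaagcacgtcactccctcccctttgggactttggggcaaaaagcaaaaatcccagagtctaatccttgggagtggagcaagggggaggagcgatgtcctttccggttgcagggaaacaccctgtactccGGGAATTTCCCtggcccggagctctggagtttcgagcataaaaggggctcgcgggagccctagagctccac
Cxcl2: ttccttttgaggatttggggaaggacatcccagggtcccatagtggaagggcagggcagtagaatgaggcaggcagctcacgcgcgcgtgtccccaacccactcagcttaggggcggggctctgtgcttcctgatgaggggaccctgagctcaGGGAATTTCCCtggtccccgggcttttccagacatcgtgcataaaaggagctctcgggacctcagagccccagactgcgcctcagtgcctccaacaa
Cxcl12: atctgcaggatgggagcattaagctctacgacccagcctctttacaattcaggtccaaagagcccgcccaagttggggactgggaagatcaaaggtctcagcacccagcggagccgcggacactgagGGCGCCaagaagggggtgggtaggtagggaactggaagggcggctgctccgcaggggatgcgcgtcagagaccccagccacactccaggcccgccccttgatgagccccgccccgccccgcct

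The stretch in capitals is the same 11 letters in *Cxcl1* and *Cxcl2*, and begins 71 and 97 bases before the RefSeq start, respectively. Searched on both strands, the NF-kappa-B consensus was found in 7.25% of 32851 promoters, GGCGCC in 9.59%, and TGANTCA, the AP-1 site, in 6.75%. No TGANTCA was found in the 6 promoters at hand, and none of the 3 motifs in those of *Ccl8*, *Cxcl14* and *Ackr3*. These matches describe letters in a window and carry no information on binding.

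Levels were first compared across the populations of the 4 WT libraries as CPM of the UMIs summed per library and population, given as mean ± SD over n = 4 libraries (n = 3 for Schwann-like cells). A difference between populations in such sums can come from the number of expressing cells or from the RNA in each of them, and both cannot be told apart in a sum. Counts at the 3′ end were not scaled by gene length, so levels are compared between populations for 1 gene at a time.

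**Figure D1:**
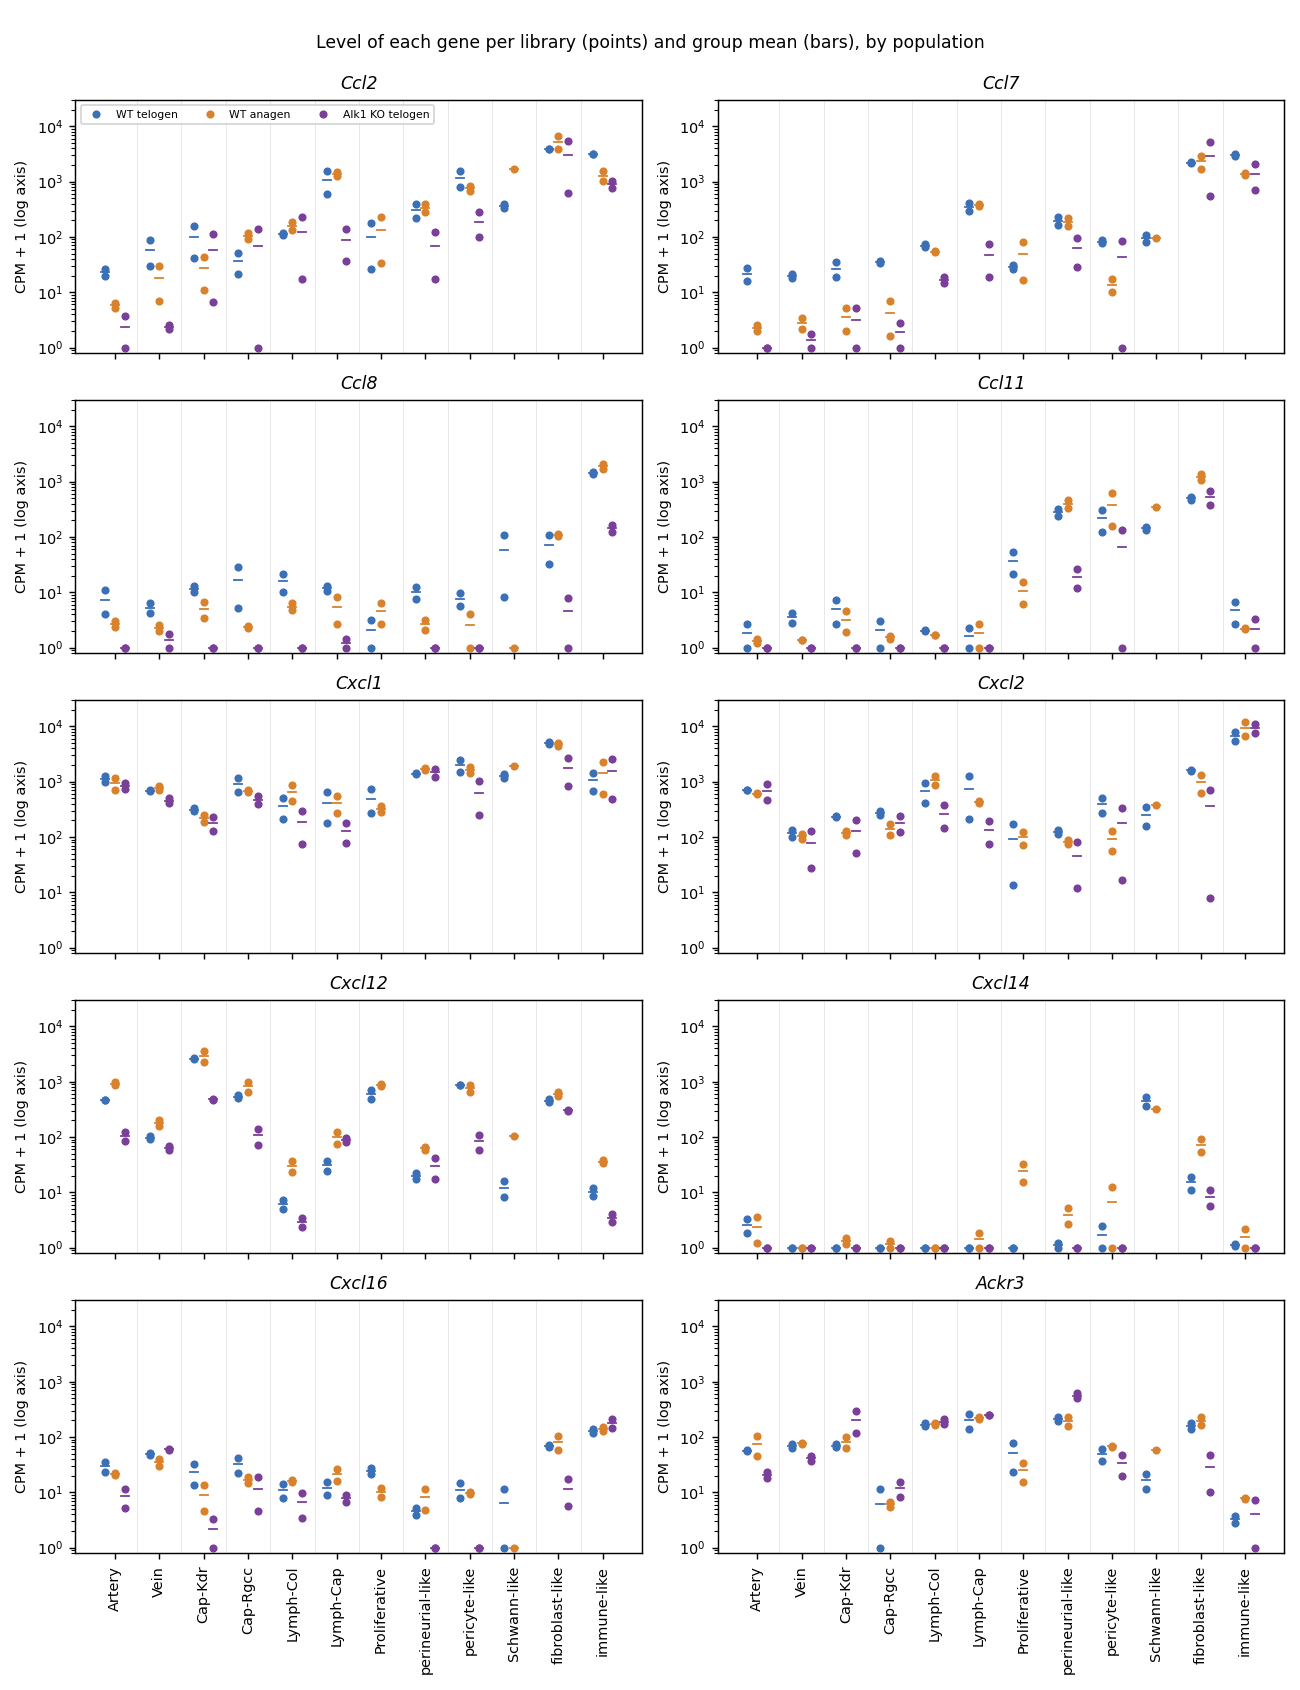
CPM + 1 on a log axis for each of the 10 genes in 12 populations. Points are libraries (WT telogen, WT anagen, Alk1 KO telogen) and bars are the group means. *Cxcl12* was highest in Cap-Kdr in WT (2768 CPM) and lower there in both KO libraries (474 and 491 CPM), whereas *Ccl8* was highest in immune-like cells (1649 CPM).

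*Ccl2*, the main attractant of monocytes, was a gene of the stroma and of lymphatic capillaries more than of blood vessels. Its level was 4561 ± 1402 CPM in fibroblast-like, 2230 ± 1110 CPM in immune-like, 1232 ± 444 CPM in Lymph-Cap and 962 ± 398 CPM in pericyte-like cells. It was 318 ± 84.9 CPM in perineurial-like cells and 135 ± 34.2 CPM in Lymph-Col, and from 63.1 CPM in Cap-Kdr down to 13.4 ± 10.3 CPM in Artery. The libraries of fibroblast-like cells lay above all those of immune-like cells, and those of perineurial-like cells above all those of Lymph-Col, while immune-like, Lymph-Cap and pericyte-like cells overlapped. Within the immune-like cells, *Ccl2* was at 5045 ± 2173 CPM in macrophage-like and 3311 ± 1937 CPM in mast-like cells.

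After each WT cell was thinned to 1500 UMIs, 50% of fibroblast-like cells (exact 95% interval 45.3 to 54.7%) and 18.3% of Lymph-Cap cells (15.3 to 21.6%) held a *Ccl2* UMI, against 1.35% in Artery. In lymphoid-like cells, which should lack it, the share was 5.26%. Unthinned, these shares were 70.1%, 25.4%, 4.13% and 16.4%, at median depths of 15990, 4310, 5025 and 6303 UMIs. The intervals cover counting error alone. The Artery share was thus below that of lymphoid-like cells, and no expression was read from it alone, whereas those of fibroblast-like and Lymph-Cap cells were above it.

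*Ccl7*, which attracts monocytes and lies next to *Ccl2*, had a similar order. It was at 2255 ± 512 CPM in fibroblast-like and 2182 ± 961 CPM in immune-like cells, with overlapping libraries. Lymph-Cap followed at 364 ± 54.8 CPM, perineurial-like cells at 192 ± 35.8 CPM, Schwann-like cells at 94.8 CPM and Lymph-Col at 60.4 ± 9.86 CPM, and the libraries of each of the first 3 lay above those of the next. Blood ECs were low, down to 10.3 CPM in Vein. Thinned, 55.3% of fibroblast-like, 13.3% of Lymph-Cap and 13.7% of perineurial-like cells held a *Ccl7* UMI, against 2.96% of lymphoid-like and 1.01% of Artery cells. The unthinned shares were 75.9%, 20.2%, 26.9%, 12.5% and 2.69%.

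*Ccl8*, another monocyte attractant of the same cluster, was a gene of macrophage-like cells, at 6268 ± 3964 CPM there and 1649 ± 316 CPM in immune-like cells as a whole. Fibroblast-like cells had 89.2 ± 38.9 CPM, and of the other populations outside the immune-like cells, Schwann-like cells had 38.7 ± 61.0 CPM and the rest at most 9.64 CPM. The Schwann-like level rested on WT telogen S2 (109 CPM, against 7.09 CPM in telogen S1 and 0 in anagen S1). Of the Schwann-like cells of that library 92.9% were likely doublets, and without likely doublets the mean was 1.99 CPM. Thinned, 56.5% of macrophage-like (12290 UMIs at the median) and 6.89% of fibroblast-like cells held a UMI, against 1.64% of lymphoid-like and 0.53% of Artery cells, and unthinned 73.2%, 31.4%, 5.92% and 1.25%.

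*Ccl11* (eotaxin), which attracts eosinophils, was a gene of the mesenchyme and the nerve sheath. It was at 862 ± 441 CPM in fibroblast-like, 339 ± 96.8 CPM in perineurial-like, 299 ± 224 CPM in pericyte-like and 212 ± 122 CPM in Schwann-like cells, whose libraries overlapped from each population to the next. All libraries of these 4 populations were above those of the remaining populations, where Proliferative ECs had 23.0 CPM and the others at most 3.05 CPM. Likely doublets made up 4.49 to 44.2% of pericyte-like cells and 7.58 to 57.1% of Proliferative ECs in the WT libraries. Without likely doublets the mean *Ccl11* level was 113 ± 109 CPM in pericyte-like cells and 5.99 CPM in Proliferative ECs. It was then 776 CPM in fibroblast-like, 352 CPM in perineurial-like and 202 CPM in Schwann-like cells. Thinned, 48.7% of fibroblast-like and 24.7% of perineurial-like cells held a UMI, against 0.259% of immune-like cells (median 11600 UMIs), and unthinned 85.4%, 49.0% and 1.49%. In Artery none of the thinned cells did (exact 95% interval 0 to 0.178%).

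*Cxcl1* was the member with the broadest expression outside immune cells. Fibroblast-like cells had 4871 ± 322 CPM, above every library of the other 11 populations. Pericyte-like cells had 1820 ± 499 CPM, perineurial-like cells 1539 ± 195 CPM, Schwann-like cells 1502 ± 412 CPM, immune-like cells 1248 ± 795 CPM and Artery 1030 ± 250 CPM, in ranges that overlapped. Vein had 724 ± 69.3 CPM and Cap-Kdr, the lowest, 264 ± 64.5 CPM. Thinned, 60.9% of fibroblast-like and 28.4% of Artery cells held a UMI, against 3.95% of lymphoid-like cells, and unthinned 75%, 40.3% and 10.2%.

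*Cxcl2*, its neighbour, was instead highest in myeloid cells, at 15190 ± 7848 CPM in macrophage-like cells and 7959 ± 2796 CPM in immune-like cells. Below these, apart from them, came fibroblast-like cells at 1297 ± 472 CPM, Lymph-Col at 867 ± 344 CPM, Artery at 658 ± 64.0 CPM and Lymph-Cap at 586 ± 466 CPM, down to 94.9 CPM in Proliferative ECs. Thinned, 84.4% of macrophage-like, 18.0% of Lymph-Col and 15.3% of Artery cells held a UMI, against 12.2% of lymphoid-like, 5.81% of perineurial-like and 3.82% of mast-like cells. The perineurial-like share was below the lymphoid-like share, and no expression was read from that share alone. Unthinned, these shares were 90.5%, 27.3%, 23.9%, 22.4%, 14.8% and 8.43%.

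*Cxcl12*, the ligand of *Cxcr4* and of the scavenger *Ackr3*, was a gene of blood capillaries. Cap-Kdr had 2768 ± 535 CPM, above every library of the other populations. Pericyte-like cells (821 ± 119 CPM), Proliferative ECs (739 CPM), Artery (692 ± 271 CPM), Cap-Rgcc (679 ± 210 CPM) and fibroblast-like cells (525 ± 95.2 CPM) overlapped and lay above Vein (138 ± 51.4 CPM). Of the pericyte-like cells 4.49 to 44.2% were likely doublets in the WT libraries, with Pecam1 at 159 to 557 CPM. The capillary RNA in them is gauged with the KO below and was near their measured level in WT telogen. Lymph-Cap (64.4 ± 45.3 CPM), Schwann-like cells (42.3 CPM), perineurial-like cells (40.3 ± 25.0 CPM), immune-like cells (22.2 ± 15 CPM) and Lymph-Col (17.3 ± 15.1 CPM) were lowest. Thinned, 81.8% of Cap-Kdr, 58.9% of Cap-Rgcc, 46.8% of Artery and 19.5% of Vein cells held a UMI, against 6.74% in Lymph-Cap, 1.72% in Lymph-Col, 1.36% in immune-like and 0.329% in lymphoid-like cells. Unthinned, the shares were 89.7%, 88.1%, 67.7%, 49.3%, 12.8%, 3.83%, 3.62% and 1.97%. No single cell made up over 7.36% of the *Cxcl12* UMIs of Cap-Kdr in a WT library.

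*Cxcl14*, a chemokine of epithelia and mesenchyme whose receptor is less settled, was highest in Schwann-like cells at 402 ± 116 CPM, with 43.1 ± 37.0 CPM in fibroblast-like cells, 11.5 CPM in Proliferative ECs and at most 3.17 CPM elsewhere. No UMI was found in Vein or Lymph-Col of the WT libraries. Thinned, 32.4% of Schwann-like and 4% of fibroblast-like cells held a UMI, against 0.0324% of immune-like cells, and unthinned 65.1%, 12% and 0.152%. Of the Schwann-like cells, which were deep (median 10490 UMIs) and few, 18.2 to 92.9% were likely doublets in the 3 WT libraries, and without likely doublets the *Cxcl14* level was 294 ± 214 CPM.

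*Cxcl16*, a membrane-bound ligand of *Cxcr6*, was highest in immune-like cells at 133 ± 14.1 CPM. Fibroblast-like cells followed at 75.1 ± 20.6 CPM and Vein at 41.3 ± 9.52 CPM, each above the libraries of the next population down to Vein. Artery had 24.6 CPM. Thinned, 13.5% of immune-like, 8.67% of fibroblast-like and 4.69% of Vein cells held a UMI, against 0.329% of lymphoid-like cells, and unthinned 42.3%, 50.7%, 20.1% and 2.3%.

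*Ackr3*, the scavenger of *Cxcl12*, was highest in lymphatic, perineurial-like and fibroblast-like cells. Lymph-Cap had 210 ± 52.3 CPM, perineurial-like cells 205 ± 36.0 CPM, fibroblast-like cells 179 ± 38.7 CPM and Lymph-Col 169 ± 9.23 CPM, with overlapping libraries that all lay above the populations that followed. Cap-Kdr had 75.2 ± 17.0 CPM, Vein 72.7 ± 6.09 CPM, Artery 64.5 ± 25.8 CPM and pericyte-like cells 57.5 ± 14.6 CPM. Cap-Rgcc, which is also a capillary population, had 5.18 CPM and immune-like cells 4.55 ± 2.66 CPM. Thinned, 20.8% of perineurial-like, 17.0% of Lymph-Cap, 11.8% of Cap-Kdr and 9.49% of Artery cells held a UMI, against 0.453% of immune-like and 0.658% of lymphoid-like cells, and unthinned 42.4%, 29.9%, 22.5%, 19.3%, 1.82% and 2.63%. Over 47 WT sums of a library and a population, Pearson's r between the log2(CPM + 1) of *Cxcl12* and *Ackr3* was -0.0382, which is a description of points that share libraries and depth.

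Each level was then set against that of immune-like cells of the same libraries with the quasi-likelihood test of edgeR, with the library as a block and Benjamini-Hochberg adjustment over all genes. A difference was called where the adjusted p was below 0.05 and the fold exceeded 1.3. Populations of the same mice enter this fit as separate sums. Its p-values therefore do not rest on the spread between mice alone and may be too small. Of 100 pairs of a member and a population, 25 were higher and 58 lower than in immune-like cells. That is 83% called, against 64.2% of all gene and population pairs. Such a comparison of unlike cells calls most genes, namely 64.4% of genes in Artery, 62.3% in Vein and 65.0% and 60.0% in the capillary populations Cap-Kdr and Cap-Rgcc, 67.8% and 60.3% in the lymphatic populations Lymph-Col and Lymph-Cap, 62.6% in Proliferative, 72.0% in perineurial-like, 63.8% in pericyte-like and 64.2% in fibroblast-like cells, so the counts say little and the sizes are given.

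The scavenger receptor and the homeostatic ligand stood above immune-like cells. *Ackr3* was higher in 9 of 10 populations, by 51.5-fold in fibroblast-like cells (log2 difference 5.69, SE 0.31, edgeR adjusted p = 1.71e-19), 47.0-fold in Lymph-Cap and 45.9-fold in perineurial-like cells. The exception was Cap-Rgcc (log2 0.48, edgeR adjusted p = 0.369). *Cxcl12* was higher in 8 of 10, by 112-fold in Cap-Kdr (log2 6.81, SE 0.38, edgeR adjusted p = 3.75e-19), 28.0-fold in Artery and 2.28-fold in Lymph-Cap, where the libraries of both populations overlapped. Its log2 difference was -0.68 in Lymph-Col and 0.49 in perineurial-like cells, neither called.

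*Ccl11* was higher in fibroblast-like (204-fold), perineurial-like (64.0-fold), pericyte-like (54.4-fold) and Proliferative cells and lower in 4 of the 6 other EC populations. As given above, its levels in pericyte-like cells and Proliferative ECs were lower without likely doublets. *Cxcl14* was higher in fibroblast-like cells (log2 6.91, SE 0.52). In contrast, *Ccl8*, *Cxcl2* and *Cxcl16* were lower than in immune-like cells in all 10 populations, with log2 differences of -10.1 to -4.50 for *Ccl8*. *Ccl2* and *Ccl7* were lower in 9 of 10, and in fibroblast-like cells they were not called (log2 1.01, edgeR adjusted p = 0.0829, and log2 0.10, edgeR adjusted p = 0.868). *Cxcl1* was higher in fibroblast-like cells (3.82-fold) and lower in 6 populations.

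Levels below those of immune-like cells were set against free immune RNA. The immune RNA in a population was gauged as its summed CPM of 10 immune markers (*Ptprc*, *Tyrobp*, *Fcer1g*, *Lyz2*, *C1qa*, *C1qb*, *C1qc*, *Cd74*, *Cd52* and *Laptm5*) over that of immune-like cells in the same library. This share times the immune-like level of a member is the level that immune RNA would carry. *Ccl8* was near that level in the larger blood vessels. Its measured level was 0.995 to 2.39 times the carried one over the 4 WT libraries in Artery (median 1.16) and 0.928 to 1.31 times in Vein (median 1.07). In the capillary populations the ratio was 1.43 to 3.82 in Cap-Kdr and 0.0892 to 3.62 in Cap-Rgcc. *Ccl7* was close to it, at 1.3 to 2.53 times in Artery and 1.65 to 2.73 times in Vein.

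Outside blood vessels the measured levels exceeded the carried ones in every WT library for most members. *Ccl7* was 16.7 to 995 times the carried level in Lymph-Cap and 21.1 to 846 times in perineurial-like cells. *Ccl2* was 58.2 to 3780 times it in Lymph-Cap, 32.9 to 1370 times in perineurial-like cells and 3.22 to 35.9 times in Vein. *Cxcl2* in Artery was 13.6 to 323 times it, whereas in perineurial-like cells it was 0.842 to 99.1 times and in Proliferative ECs 0.609 to 74.1 times, with libraries on both sides of equality. The plot of measured against carried levels shows *Ccl8* of blood ECs on both sides of the line of equality, with Cap-Rgcc of anagen S1 below it (0.0892 times).

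**Figure D2:**
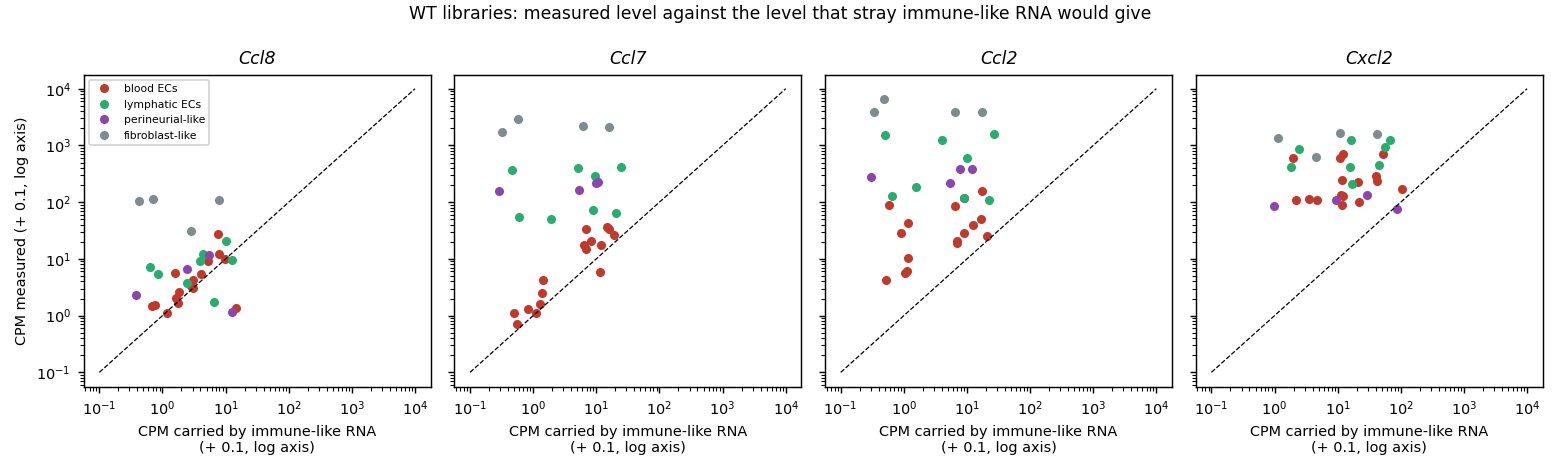
Measured CPM (vertical) against the CPM that immune-like RNA would carry (horizontal), both + 0.1 on log axes, for *Ccl8*, *Ccl7*, *Ccl2* and *Cxcl2* in the 4 WT libraries. Points are library and population sums, coloured by blood ECs, lymphatic ECs, perineurial-like and fibroblast-like cells, and the dashed line is equality. Blood ECs lie on both sides of the line for *Ccl8* (0.928 to 1.31 times in Vein and 0.0892 to 3.62 times in Cap-Rgcc), and fibroblast-like cells lie above it in all 4 panels.

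The study asked how VE-cadherin-marked cells change between rest (telogen) and growth (anagen) of the hair follicle. WT anagen was compared with WT telogen in each population by the quasi-likelihood test of edgeR, with the same rule for a call. Of 88 pairs tested, 8 were higher and 3 lower at anagen (12.5% called, against 0.532% of all gene and population pairs). The other 22 pairs had too few counts. *Cxcl12* accounted for 5 of the 8 rises, *Ccl2*, *Ccl11* and *Cxcl14* gave 1 rise each, *Ccl7* 2 falls and *Ccl2* 1 fall, and *Cxcl1*, *Cxcl2*, *Cxcl16*, *Ackr3* and *Ccl8* gave no call in the 11 populations of this count, which leaves out the immune subtypes.

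*Cxcl12* was higher at anagen in Artery, Vein, both lymphatic populations and perineurial-like cells. In Artery it was at 460 and 458 CPM in the telogen mice and at 880 and 968 CPM in the anagen mice, so that both anagen mice were above both telogen mice. The log2 difference was 1.11 (SE 0.12, 2.16-fold, edgeR adjusted p = 0.00765), in a population where 0.607% of genes were called. Vein went from 103 and 89.3 CPM to 157 and 201 CPM (log2 1.02, SE 0.18, edgeR adjusted p = 0.0292, background 0.571%). In the populations with the most *Cxcl12* the call was not made, with log2 differences of 0.17 in Cap-Kdr (2577 and 2641 against 2312 and 3542 CPM, edgeR adjusted p = 0.813), 0.74 in Cap-Rgcc (edgeR adjusted p = 0.0902), -0.17 in pericyte-like and 0.51 in fibroblast-like cells. No gene at all was called in Cap-Kdr (0.0%).

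In Lymph-Col, *Cxcl12* was at 4.07 and 6.27 CPM at telogen and 22.3 and 36.4 CPM at anagen (log2 2.58, SE 0.36, 5.96-fold, edgeR adjusted p = 0.00784, background 1.52%). In Lymph-Cap it was at 23.1 and 36.1 CPM and at 74.4 and 124 CPM (log2 1.82, SE 0.31, 3.54-fold, edgeR adjusted p = 0.0289, background 0.501%). In perineurial-like cells it was at 16.5 and 21.2 CPM and at 58.5 and 65.0 CPM (log2 1.79, SE 0.18, 3.45-fold, edgeR adjusted p = 0.00471, background 0.993%). In all 3 both anagen mice were above both telogen mice, at levels far under those of capillaries.

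Cap-Kdr cells, the richest in *Cxcl12*, also made up more of the anagen libraries (26.8% and 12.5%) than of the telogen libraries (6.97% and 5.03%). Their RNA in another population was gauged as that of immune-like cells above, by the summed CPM of all 11 Cap-Kdr markers, which other ECs share in part, or of 4 of them chosen after values were seen (*Gpihbp1*, *Cd300lg*, *Btnl9* and *Rbp7*). In Lymph-Col the 4 genes summed to 35.1 and 32.9 CPM at telogen and 71.6 and 51.6 CPM at anagen. The measured *Cxcl12* was 0.187 and 0.341 times the level such RNA would carry at telogen, and 0.953 and 0.917 times at anagen. It was 0.0277 to 0.240 times that level over these 4 mice by the 11 markers. In Lymph-Cap the ratios by the 4 genes were 0.112 and 0.136 at telogen and 0.652 and 0.359 at anagen, and in perineurial-like cells 1.10 and 0.960, and 2.25 and 1.5. By the 11 markers they were 0.0791 to 0.316 in Lymph-Cap and 0.042 to 0.25 in perineurial-like cells over these 4 mice. In perineurial-like cells Pecam1 was at 11.3 and 17.9 CPM at telogen and at 49.2 and 53.5 CPM at anagen. Likely doublets made up 0.917% and 2.11% of these cells at telogen, and 3.27% and 3.46% at anagen. Without likely doublets their mean WT level of *Cxcl12* was 17.6 CPM, against 40.3 CPM with them. In Lymph-Col it was 12.8 against 17.3 CPM, and in Lymph-Cap 43.6 against 64.4 CPM. The part of capillary RNA in these rises was not tested.

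Without WT telogen S1 the calls of *Cxcl12* were lost in Artery (log2 1.14, edgeR adjusted p = 0.0746), Vein (edgeR adjusted p = 0.545) and Lymph-Cap (log2 1.55, edgeR adjusted p = 0.0800), and that in Vein also without WT telogen S2 (edgeR adjusted p = 0.553). The calls in Lymph-Col and perineurial-like cells were kept whichever library was left out.

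*Ccl7* and *Ccl2* fell in Artery at anagen. *Ccl7* went from 14.9 and 26.1 CPM at telogen to 1.53 and 1.0 CPM at anagen (log2 -3.87, SE 0.46, 14.6-fold lower, edgeR adjusted p = 0.00765), and in Vein from 17.2 and 20.3 CPM to 2.39 and 1.19 CPM (log2 -3.37, SE 0.44, 10.4-fold lower, edgeR adjusted p = 0.00861). *Ccl2* in Artery went from 18.6 and 25.3 CPM to 5.45 and 4.20 CPM (log2 -2.07, SE 0.32, edgeR adjusted p = 0.0288). The telogen mice were above the anagen mice in each case. The summed immune markers fell with them, from 71.4 to 194 CPM at telogen to 14.0 to 41.4 CPM at anagen in Artery and from 66.5 to 81.3 CPM to 25.7 to 45.4 CPM in Vein, with 0 of the 10 markers at 0 in Artery and 1 (*C1qb*) in Vein at anagen. As given above, *Ccl7* was near the level that this immune RNA would carry. Leaving out WT telogen S1 or S2 ended the calls of *Ccl7* in Vein (edgeR adjusted p = 0.545 and 0.518) and of *Ccl2* in Artery (edgeR adjusted p = 0.0805 and 0.149).

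*Ccl2* was called higher at anagen in Cap-Rgcc, at 116 and 89.7 CPM against 20.7 and 51.1 CPM (log2 1.73, SE 0.35, edgeR adjusted p = 0.0471, background 1.12%). A single cell held 48.5% and 65.0% of these UMIs in anagen S1 and S2, and 5 cells 91.4% and 93.4%. The summed immune markers of Cap-Rgcc were 70.5 to 150 CPM at telogen and 15.8 to 398 CPM at anagen. The call was lost without WT telogen S1 (log2 1.15, edgeR adjusted p = 0.257) or S2 (edgeR adjusted p = 0.0643), and the difference was -2.15 with populations taken from marker scores.

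In fibroblast-like cells, where 0.224% of genes were called, *Ccl11* and *Cxcl14* rose. *Ccl11* was at 465 and 537 CPM at telogen and 1395 and 1051 CPM at anagen (log2 1.40, SE 0.18, 2.64-fold, edgeR adjusted p = 0.0446). *Cxcl14* was at 10.2 and 18.0 CPM and at 90.8 and 53.4 CPM (log2 2.44, SE 0.34, 5.42-fold, edgeR adjusted p = 0.0460). Both anagen mice were above both telogen mice for each gene, and the calls were kept whichever library was left out.

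No member was called in Proliferative ECs (background 0.141%), pericyte-like cells (0.0456%) or immune-like cells (0.0%). In macrophage-like cells, where 2.25% of genes were called, 4 members rose, namely *Cxcl2* (log2 1.52, edgeR adjusted p = 0.0120), *Ccl8* (log2 1.55, edgeR adjusted p = 0.0323), *Cxcl12* (log2 2.94, edgeR adjusted p = 0.0157) and *Ackr3* (log2 3.83, edgeR adjusted p = 0.0429). *Cxcl12* and *Ackr3* rested on 75 and 18 UMIs at anagen. Anagen S2 held 20 of these cells, of which 100% were marked as likely doublets, against 8.04% in anagen S1 and 2.03% and 8.63% in the telogen mice. The EC marker Pecam1 was at 12.6 and 13.4 CPM in macrophage-like cells at telogen and at 87.4 and 91.9 CPM at anagen. The part of doublets and of EC RNA in these rises was not tested. No gene was called in monocyte/dendritic-like cells (0.0%). Libraries were not left out in turn for these immune subtypes.

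Whether the response to the stage differed between vessel types was tested as an interaction in edgeR, in 1 fit over the populations with the library as a block. Populations of the same 4 mice enter that fit as separate sums, so its p-values do not rest on the spread between 2 mice a group alone and may be too small, also for the KO. The stage difference of *Cxcl12* was smaller in blood than in lymphatic ECs by 1.41 on the log2 scale (blood minus lymphatic -1.41, SE 0.20, edgeR adjusted p = 0.000122). Without WT telogen S1 it was -1.08 (edgeR adjusted p = 0.106). That of *Ccl7* was -3.34 (SE 0.29, edgeR adjusted p = 1.81e-08), among 0.214% of genes called. *Ccl7* of blood ECs had few UMIs, and in Artery and Vein it was near the level that immune RNA would carry. Between ECs and perineurial-like cells *Ccl7* differed by -2.30 (SE 0.23, edgeR adjusted p = 1.05e-07, background 1.56%), and *Cxcl12* was not called (-0.53, edgeR adjusted p = 0.170).

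**Figure D3:**
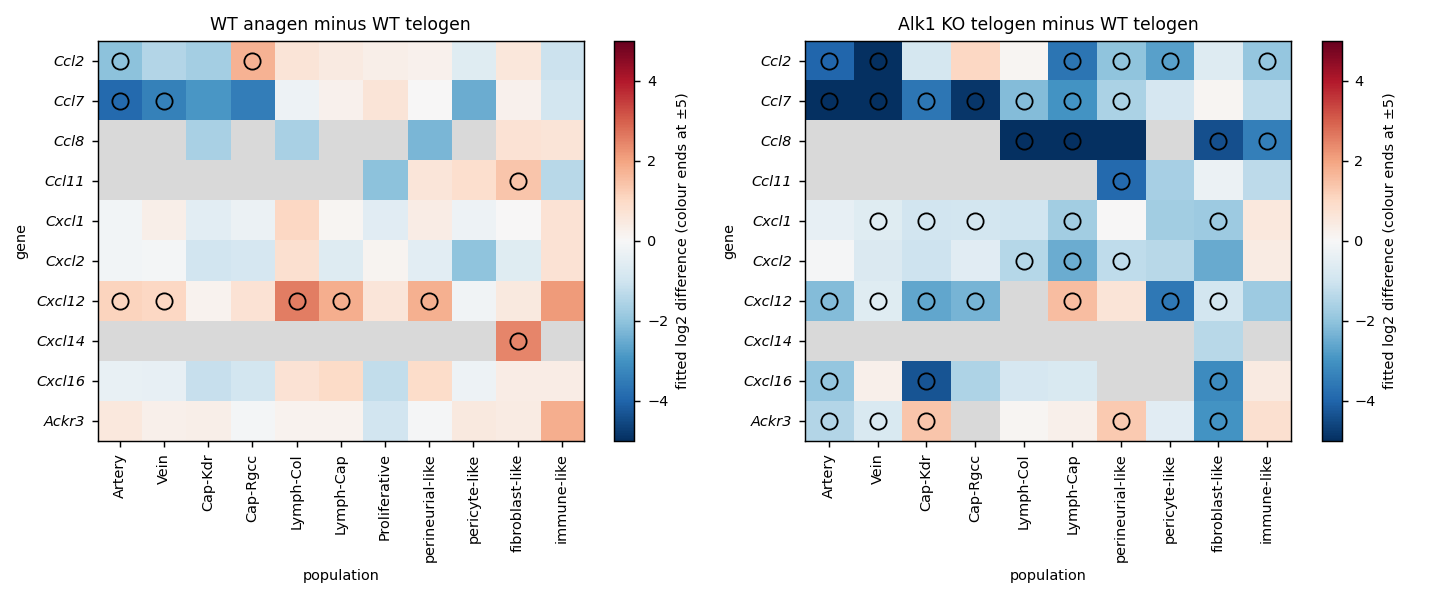
Fitted log2 differences of the 10 genes (rows) by population (columns), WT anagen minus WT telogen on the left and Alk1 KO telogen minus WT telogen on the right. Red is higher and blue lower, with the colour ending at ±5, circles mark calls and grey squares were not tested. The left map has 8 rises and 3 falls, with 5 of the rises in the row of *Cxcl12*, and the right map has 3 rises and 38 falls.

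Alk1 KO telogen was then compared with WT telogen to ask what loss of Alk1 changed. Of 76 pairs tested, 3 were higher and 38 lower in the KO (53.9% called, against 18.9% of all gene and population pairs, among which 7572 were higher and 9228 lower). The other 24 pairs had too few counts. The KO and stage comparisons share the WT telogen libraries. The calls of members were thus mostly falls, in populations where other genes moved both ways. Some pairs passed the filter on low counts through WT telogen alone. *Ccl7* in Artery had 20 and 32 UMIs in WT telogen and 0 in both KO mice, and *Ccl8* in Lymph-Col 18 and 39 UMIs against 0. Such pairs could only be called lower, so the balance of rises and falls was fixed in part by the filter.

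*Cxcl12* was called lower in the KO in blood ECs and in pericyte-like and fibroblast-like cells. In Cap-Kdr it was at 2577 and 2641 CPM in WT and at 474 and 491 CPM in the KO (log2 -2.59, SE 0.19, 6.04-fold lower, edgeR adjusted p = 5.86e-05, background 31.5%). In Artery it went from 460 and 458 CPM to 124 and 82.4 CPM (log2 -2.15, SE 0.19, 4.44-fold lower, edgeR adjusted p = 3.56e-05, background 17.5%). In Cap-Rgcc it went from 566 and 511 CPM to 141 and 70.9 CPM (log2 -2.31, SE 0.30, 4.96-fold lower, edgeR adjusted p = 0.000647, background 13.3%).

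Both KO mice were below both WT mice in each of these blood populations. Vein, the blood population with the least, fell by 0.62 on the log2 scale (103 and 89.3 against 68.6 and 56.3 CPM, edgeR adjusted p = 0.0491, background 20.7%), a call lost without WT telogen S1, WT telogen S2 or KO S2 (edgeR adjusted p = 0.311, 0.0751 and 0.143). The calls in Cap-Kdr, Artery and Cap-Rgcc were kept whichever library was left out.

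In pericyte-like cells *Cxcl12* went from 888 and 866 CPM to 56.2 and 108 CPM (log2 -3.57, SE 0.34, 11.9-fold lower, edgeR adjusted p = 0.00579, background 6.14%), with 62 and 35 such cells in the KO mice. Pericyte-like cells carried much capillary RNA. By the 4 genes named above, Cap-Kdr RNA would carry 919 and 686 CPM of *Cxcl12* into them in the WT telogen mice and 17.7 and 65.3 CPM in the KO mice, so that the measured levels were 0.966 and 1.26 times, and 3.17 and 1.65 times, the carried ones. By the 11 markers these ratios were 0.735 and 0.863, and 0.969 and 0.880. The part of capillary RNA in the fall of pericyte-like cells was not tested. In fibroblast-like cells, where the measured level was at least 27.7 times the carried one by the 4 genes, *Cxcl12* went from 429 and 478 CPM to 293 and 312 CPM (log2 -0.92, SE 0.20, edgeR adjusted p = 0.00599, background 41.7%). Without WT telogen S2 the adjusted p was 0.0693 in edgeR.

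Lymph-Cap went the other way. *Cxcl12* was at 23.1 and 36.1 CPM in WT and 81.1 and 96.5 CPM in the KO (log2 1.56, SE 0.24, 2.95-fold higher, edgeR adjusted p = 0.000922, background 14.5%), kept whichever library was left out. The summed level of the 11 Cap-Kdr markers was 1360 and 1570 CPM in these cells of the WT telogen mice and 1990 and 2280 CPM in those of the KO mice. That of the 4 genes was 333 and 475 CPM, and 1080 and 1190 CPM. The measured *Cxcl12* of the KO mice was 1.01 and 0.844 times the level that Cap-Kdr RNA would carry by the 11 markers, and 0.570 and 0.555 times by the 4 genes. The part of such RNA in this rise was not tested. Lymph-Cap made up 173 and 156 cells of the WT telogen libraries and 432 and 530 of the KO libraries. Their *Ccl21a*, the ligand of lymphatic capillaries, was at 18009 and 11105 CPM in WT telogen and 2459 and 2552 CPM in the KO, although its near-identical copies make that gene uncertain. In perineurial-like cells the log2 difference of *Cxcl12* was 0.66 (edgeR adjusted p = 0.348).

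*Ackr3*, the scavenger of this ligand, rose in Cap-Kdr and perineurial-like cells. In perineurial-like cells it was at 192 and 234 CPM in WT and at 615 and 503 CPM in the KO (log2 1.31, SE 0.22, 2.48-fold, edgeR adjusted p = 0.000811, background 21.8%), and both KO mice were above both WT mice. In Cap-Kdr it was at 64.1 and 73.3 CPM and at 116 and 293 CPM (log2 1.40, SE 0.35, 2.64-fold, edgeR adjusted p = 0.0139). The call in Cap-Kdr was lost without WT telogen S1 (edgeR adjusted p = 0.167) or S2 (edgeR adjusted p = 0.136), and that in perineurial-like cells was kept.

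*Ackr3* fell in Artery, from 56.5 and 53.9 CPM to 17.0 and 22.3 CPM (log2 -1.48, SE 0.26, edgeR adjusted p = 0.00244). It fell in Vein from 74.7 and 63.7 CPM to 44.2 and 35.9 CPM (log2 -0.78, edgeR adjusted p = 0.0291), a call lost without WT telogen S1 (edgeR adjusted p = 0.220) or KO S2 (edgeR adjusted p = 0.0582). In fibroblast-like cells it went from 180 and 141 CPM to 46.7 and 9.37 CPM (log2 -2.98, SE 0.47, 7.92-fold lower, edgeR adjusted p = 0.00109), on 18 UMIs in the KO. In the lymphatic populations no call was made (log2 0.24 in Lymph-Cap and 0.11 in Lymph-Col). Cap-Kdr thus had less of the ligand and more of its scavenger, and Artery less of both.

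The monocyte attractants fell in lymphatic and perineurial-like cells. In Lymph-Cap *Ccl2* was at 595 and 1562 CPM in WT and 139 and 36.1 CPM in the KO (log2 -3.66, SE 0.52, 12.7-fold lower, edgeR adjusted p = 0.000575). *Ccl7* was at 287 and 410 CPM and at 72.9 and 17.7 CPM there (log2 -3.00, SE 0.42, 8.0-fold lower, edgeR adjusted p = 0.000575). In Lymph-Col *Ccl7* went from 72.7 and 63.7 CPM to 13.7 and 17.8 CPM (log2 -2.17, SE 0.24, 4.50-fold lower, edgeR adjusted p = 0.000110, background 17.2%).

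Both KO mice were below both WT mice in each of these. *Ccl2* in Lymph-Col was not called (118 and 109 against 16.1 and 232 CPM), and a single cell held 81.5% of the UMIs of KO S2. In perineurial-like cells *Ccl2* went from 217 and 386 CPM to 120 and 16.6 CPM (log2 -2.01, SE 0.45, edgeR adjusted p = 0.00503) and *Ccl7* from 166 and 227 CPM to 95.1 and 27.6 CPM (log2 -1.60, SE 0.35, edgeR adjusted p = 0.00444). *Ccl11*, the eosinophil attractant, fell most clearly there, from 240 and 320 CPM to 25.4 and 11.1 CPM (log2 -3.89, SE 0.36, 14.8-fold lower, edgeR adjusted p = 9.48e-06), on 10 UMIs in 80 and 55 KO cells. In fibroblast-like cells *Ccl11* was not called (465 and 537 against 663 and 370 CPM, edgeR adjusted p = 0.451).

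The immune markers were also lower in the KO. They summed to 101 to 248 CPM in Lymph-Cap of WT telogen and 10.2 to 20.9 CPM in the KO (1 of 10 at 0, *Ptprc*), to 91.1 to 206 and 10.5 to 11.6 CPM in Lymph-Col (3 of 10 at 0, *Ptprc*, *C1qc* and *Cd52*), and to 55.3 to 108 and 6.34 to 11.1 CPM in perineurial-like cells (7 of 10 at 0, *Ptprc*, *Tyrobp*, *Fcer1g*, *C1qa*, *C1qb*, *Cd52* and *Laptm5*). *Ccl2* and *Ccl7* of Lymph-Cap and perineurial-like cells were at least 16.7 times the level that immune RNA would carry in the WT libraries, and immune-like cells had 1.66 and 5.74 CPM of *Ccl11* in WT telogen. The part of immune RNA in these falls was not tested.

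In blood ECs *Ccl7* was near the limit of detection in the KO, as was *Ccl2* in Artery and Vein. In the capillary populations of KO S1 *Ccl2* was not, and most of its UMIs lay in single cells. Cap-Kdr had 103 *Ccl2* UMIs there, 91 of them in 1 cell, and Cap-Rgcc had 76, 71 of them in 1 cell. *Ccl7* had 0 UMIs in Artery of the KO mice, against 14.9 and 26.1 CPM in WT, so it was at least 15.7-fold lower when set against 3 counts over the group. A single UMI was left in Vein (ratio WT over KO 40.2, 95% counting interval 6.85 to 1623) and in Cap-Rgcc (38.2, 6.32 to 1562), and 4 in Cap-Kdr (log2 -3.62, edgeR adjusted p = 0.00592, lost without WT telogen S2 with an edgeR adjusted p of 0.131). *Ccl2* had 3 UMIs each in Artery (ratio 16.9, 5.50 to 84.6) and Vein (41.4, 13.9 to 203). As the WT telogen values of *Ccl7* in Artery and Vein were 1.36 to 2.73 times the carried ones, these falls run with that of the immune markers, from 71.4 to 194 CPM to 10.7 to 11.6 CPM in Artery (4 of 10 at 0 in the KO, *Ptprc*, *C1qa*, *C1qb* and *C1qc*) and from 66.5 to 81.3 CPM to 5.34 to 30 CPM in Vein (6 of 10 at 0, *Ptprc*, *Lyz2*, *C1qb*, *C1qc*, *Cd52* and *Laptm5*).

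*Ccl8* fell in its main source. In macrophage-like cells it was at 3615 and 3212 CPM in WT and 539 and 622 CPM in the KO (log2 -2.53, SE 0.21, 5.78-fold lower, edgeR adjusted p = 0.000577, background 12.6%), and in immune-like cells at 1371 and 1464 CPM and at 163 and 122 CPM (log2 -3.41, SE 0.20, 10.7-fold lower, edgeR adjusted p = 0.0241, background 6.43%). Both KO mice were below both WT mice, and there were 25 and 39 macrophage-like cells in them against 344 and 823 in WT. *Ccl8* was also called lower in Lymph-Col (0 UMIs in the KO, at least 13.2-fold), Lymph-Cap (1 UMI, ratio 57.8, interval 8.98 to 2424) and fibroblast-like cells (3 UMIs, ratio 17.9, interval 6.09 to 87.4). Its WT level in Lymph-Col was 1.6 to 7.09 times that carried by immune RNA. In macrophage-like cells *Ccl2* (log2 -1.12, edgeR adjusted p = 0.0164) and *Ccl7* (log2 -1.11, edgeR adjusted p = 0.0131) fell too, while *Cxcl2* rose from 7644 and 9314 CPM to 13148 and 22822 CPM (log2 1.11, edgeR adjusted p = 0.0288). Immediate-early and heat-shock transcripts of these cells summed to 10660 and 10386 CPM in WT telogen and 28917 and 18375 CPM in the KO. The median depth was 14685 and 12662 UMIs against 5924 and 6109, and likely doublets made up 2.03% and 8.63% against 52% and 15.4%. Their part in the 4 calls was not tested. *Ccl2* and *Ccl7* were the 2 members called in monocyte/dendritic-like cells (log2 -2.80 and -3.51, background 2.68%).

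*Ccl2* fell in immune-like cells as a whole (log2 -1.93, edgeR adjusted p = 0.0313), a call lost without WT telogen S1 (edgeR adjusted p = 0.0611) or S2 (edgeR adjusted p = 0.129). It also fell in pericyte-like cells, from 1551 and 798 CPM to 278 and 98.5 CPM (log2 -2.70, SE 0.53, edgeR adjusted p = 0.0293). In KO S1 a single pericyte-like cell held all 89 of its UMIs, and the immune markers went from 56.1 to 333 CPM in WT telogen to 0 for all 10 in the KO, whose part in the fall was not tested. *Ccl2* and *Ccl7* of fibroblast-like cells were not called (log2 -0.64 and 0.09), as KO S1 and S2 lay far apart (*Ccl2* at 5477 and 625 CPM) and 1 cell held 53.1% of the *Ccl2* UMIs of KO S1.

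The neutrophil attractants fell in some vessels and in fibroblast-like cells. *Cxcl1* was lower in fibroblast-like cells, from 5252 and 4751 CPM to 2684 and 846 CPM (log2 -1.82, SE 0.45, edgeR adjusted p = 0.0104), and in Cap-Kdr, from 338 and 288 CPM to 229 and 127 CPM (log2 -0.96, edgeR adjusted p = 0.0219). It was also called in Vein (log2 -0.60, edgeR adjusted p = 0.0219) and Cap-Rgcc (log2 -0.93, edgeR adjusted p = 0.0482). Each of these vessel calls was lost without at least 1 library, that in Cap-Kdr without WT telogen S1 (edgeR adjusted p = 0.187) or S2 (0.116), that in Vein without WT telogen S1 (0.0887), WT telogen S2 (0.0905) or KO S1 (0.0880), and that in Cap-Rgcc without WT telogen S2 (0.590) or KO S2 (0.107).

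*Cxcl2* was lower in Lymph-Col, from 419 and 933 CPM to 144 and 378 CPM (log2 -1.43, SE 0.39, edgeR adjusted p = 0.0246), and in perineurial-like cells (log2 -1.28, edgeR adjusted p = 0.0305), where it was lost without KO S2 (edgeR adjusted p = 0.108). In Lymph-Cap both genes were called (*Cxcl1* log2 -1.72, edgeR adjusted p = 0.0243, and *Cxcl2* log2 -2.47, edgeR adjusted p = 0.0146), but these calls rested on WT telogen S2, with 662 and 1267 CPM against 176 and 208 CPM in S1. Without it the log2 differences were -0.53 (edgeR adjusted p = 0.388) and -0.70 (edgeR adjusted p = 0.266). In Artery neither gene was called (log2 -0.42 and -0.07). Immediate-early and heat-shock transcripts summed to 23600 to 26400 CPM in Lymph-Col of WT telogen and 31500 to 32100 CPM in the KO. In Lymph-Cap they summed to 14300 to 16500 CPM and 19600 to 19700 CPM, and their part in these values was not tested.

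*Cxcl16* fell in fibroblast-like cells, from 66.2 and 71.5 CPM to 16.7 and 4.68 CPM (log2 -3.15, SE 0.45, 8.89-fold lower, edgeR adjusted p = 0.000628). It fell in Cap-Kdr on 2 KO UMIs (ratio 19.7, interval 5.18 to 167), lost without WT telogen S2 (edgeR adjusted p = 0.132), and in Artery (log2 -1.95, edgeR adjusted p = 0.0119), lost without WT telogen S2 (edgeR adjusted p = 0.101) or KO S2 (0.0555). In Vein and immune-like cells it was not called (log2 0.27 and 0.45). Fibroblast-like cells of the KO were few (33 and 53) and shallow (median 6280 to 8710 UMIs against 16500 to 17200 in WT telogen). Their immediate-early and heat-shock transcripts summed to 29200 to 29900 CPM, against 11000 to 12200 CPM in WT telogen. The immune markers there summed to 64.9 to 158 CPM in WT telogen and 4.68 to 6.67 CPM in the KO, with 6 of 10 at 0 (*Ptprc*, *Lyz2*, *C1qb*, *C1qc*, *Cd74* and *Cd52*). The part of these in the 5 falls of members in fibroblast-like cells was not tested. Likely doublets made up 51.5% and 24.5% of fibroblast-like cells in the KO mice, against 17.1% and 6.08% in the WT telogen mice.

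The KO response of *Cxcl12* differed between vessel types when tested as an interaction. It was lower in blood than in lymphatic ECs by a log2 difference of -1.96 (SE 0.52, edgeR adjusted p = 0.00787, background 13.5%), and that of *Ccl7* by -2.88 (SE 0.74, edgeR adjusted p = 0.00582). Between ECs and perineurial-like cells *Cxcl12* differed by -1.77 (SE 0.50, edgeR adjusted p = 0.0170, background 8.71%), *Ccl7* by -2.65 (SE 0.63, edgeR adjusted p = 0.00423) and *Ackr3* by -1.12 (SE 0.34, edgeR adjusted p = 0.0308). Without KO S1 the first of these was -2.09 (edgeR adjusted p = 0.0691), and those against perineurial-like cells were -0.97 for *Cxcl12* (edgeR adjusted p = 0.733), -2.60 for *Ccl7* (edgeR adjusted p = 0.196) and -0.88 for *Ackr3* (edgeR adjusted p = 0.0899). Without WT telogen S1 that of *Ackr3* was 0.19 (edgeR adjusted p = 1). The blood and lymphatic difference of *Ccl7* was kept whichever library was left out. In blood ECs of the KO it rested on 0 UMIs in Artery, 1 each in Vein and Cap-Rgcc, and 4 in Cap-Kdr. The WT level of *Ccl7* in Artery and Vein was near that carried by immune RNA.

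*Ccl2* and *Ccl7* of lymphatic capillaries came largely from few cells. Of the 1680 Lymph-Cap cells, 141 formed a sub-cluster led by these genes, which was found in the same counts, so its levels are a description. It held 14.4% and 10.9% of Lymph-Cap cells in the WT telogen mice, 15.1% and 18.5% in the anagen mice, and 5.09% and 2.26% in the KO mice. Its cells had 31.5% and 84.6%, 81.5% and 78.5%, and 54.7% and 13.7% of the *Ccl2* UMIs of Lymph-Cap, respectively.

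*Ccl2* in the sub-cluster was at 935 and 7113 CPM in the telogen, 4031 and 5431 CPM in the anagen and 1222 and 177 CPM in the KO mice. In the other Lymph-Cap cells it was at 510 and 295, 315 and 414, and 66.8 and 32.0 CPM. *Ccl7* in these other cells was at 108 and 84.9, 116 and 157, and 13.5 and 15.3 CPM. A single Lymph-Cap cell of WT telogen S1, outside the sub-cluster, held 227 of the 335 *Ccl2* UMIs of its other cells. The other Lymph-Cap cells of both KO mice were below those of all 4 WT mice for both genes.

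**Figure D4:**
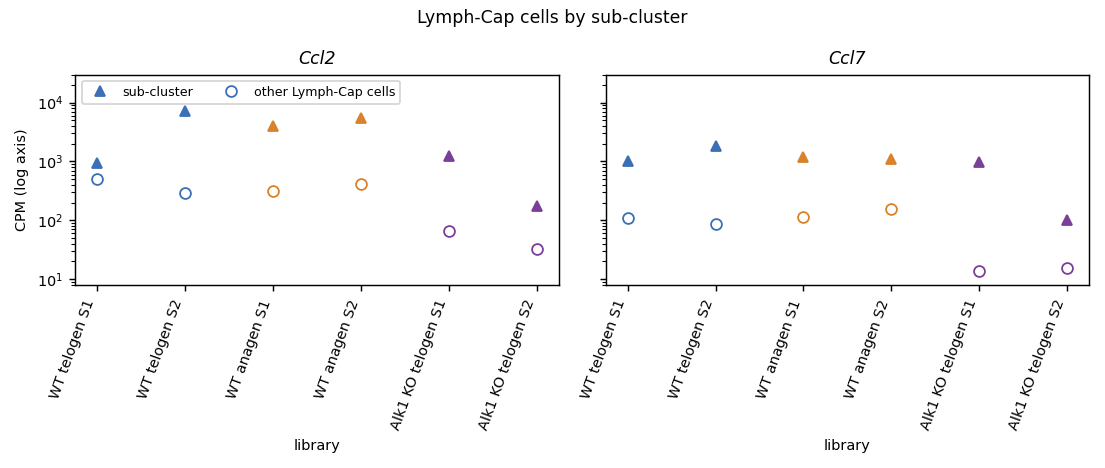
CPM on a log axis of *Ccl2* (left) and *Ccl7* (right) in the cells of the Lymph-Cap sub-cluster (triangles) and the other Lymph-Cap cells (open circles) of each library, coloured by group. In the other cells *Ccl2* is at 295 to 510 CPM in the WT libraries and at 32.0 and 66.8 CPM in the KO libraries.

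The KO tests were repeated without the sub-cluster, an alternative chosen after seeing the data. *Ccl2* was still lower (log2 -3.07, edgeR adjusted p = 2.27e-05), as was *Ccl7* (log2 -2.76, edgeR adjusted p = 8.90e-06), and *Cxcl12* was still higher (log2 1.40, edgeR adjusted p = 0.00188). *Cxcl1* was no longer called (log2 -0.19, edgeR adjusted p = 0.786). Between stages, *Cxcl12* lost its call without the sub-cluster (log2 1.78, edgeR adjusted p = 0.0711).

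For each member the genes with the most similar pattern over the 47 WT sums were found among 11543 genes by Pearson's r of log2(CPM + 1), as a description of points that share libraries. *Ccl2* was most like *Ccl7* (r = 0.856) and *Pid1* (r = 0.824), and *Ccl7* like *Hk2* (r = 0.858). *Ccl8* was closest to the macrophage receptor gene *Csf1r* (r = 0.914) and to *Il18* (r = 0.90). *Ccl11* was closest to *Rarres2*, which encodes the attractant chemerin (r = 0.978), and *Naalad2* (r = 0.974).

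*Cxcl12* was closest to *Ly6c1* (r = 0.933) and *Sparcl1* (r = 0.893). *Ackr3* was closest to *Ccn1* (r = 0.877) and *Aga* (r = 0.825), and *Cxcl14* to the Schwann cell cadherin gene *Cdh19* (r = 0.859). *Cxcl1* was closest to *Vasn* (r = 0.812), *Cxcl2* to *Ftl1* (r = 0.862) and *Cxcl16* to *Sp140* (r = 0.794). Among pairs of members, r was 0.781 for *Ccl8* and *Cxcl2*, 0.718 for *Ccl7* and *Ccl8*, and 0.685 for *Ccl11* and *Cxcl1*.

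Of the other chemokine ligands and receptors, all calls with the stage were falls in this count, which leaves out the immune subtypes. Of 84 pairs of another ligand and a population, 4 fell and 0 rose, and of 38 pairs of another receptor, 1 fell and 0 rose. Of all gene and population pairs, 0.532% were called for the stage. The largest falls were those of *Pf4*, a chemokine of platelets and macrophages, in perineurial-like cells (7.60 and 17.1 against 0.518 and 0 CPM, log2 -5.81, edgeR adjusted p = 0.0298) and Artery (log2 -4.87, edgeR adjusted p = 0.0333), and WT macrophage-like cells had 4771 CPM of it on average.

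In the KO, 5 of 63 pairs of another ligand rose and 17 fell, and 8 of 35 pairs of another receptor rose and 2 fell. Of all gene and population pairs, 18.9% were called for the KO. The B-cell attractant *Cxcl13* rose in fibroblast-like cells from 12.7 and 34.0 CPM to 1410 and 2645 CPM (log2 6.08, SE 0.47, edgeR adjusted p = 2.98e-05) and in immune-like cells (log2 5.84, edgeR adjusted p = 0.0431). *Cxcl5*, a neutrophil attractant, went from 19.1 and 23.6 CPM to 0 UMIs in fibroblast-like cells. As given above, these KO fibroblast-like cells were few and shallow, with likely doublets at 51.5% and 24.5%. Against immune-like cells, 25 of 200 ligand pairs were higher and 124 lower, and 13 of 110 receptor pairs were higher and 80 lower, with the scavenger *Ackr2* higher in Lymph-Cap (log2 8.32). In that comparison 64.2% of all gene and population pairs were called.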

How the data were processed

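Droplet scRNA-seq (10x 3′) of tdTomato+ cells sorted from mouse dorsal skin was analysed in 6 libraries, 1 per mouse, 2 per group. The authors deposited raw UMI counts per gene and cell barcode, with Cell Ranger 6.0.1 and mm10 and Seurat 4.0 named in the submitters' processing notes. Whether further filters were applied before deposit was not given in the sources used here.

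Cells with 200 to 5000 genes and under 10% mitochondrial UMIs were kept (73.7 to 78.5% of barcodes, 1713 to 5106 cells and a median of 4371 to 6935 UMIs a library). Counts were log-normalised, 3000 variable genes without any chemokine gene were reduced to 30 components, libraries were aligned by a Harmony-type correction (theta 2, sigma 0.1), and clusters were found with leidenalg 0.10.2 at resolution 0.6. A cluster was named from at least 3 markers, and since names were rebuilt they may differ from those of the study. Without the correction between libraries, KO ECs largely formed clusters of their own. A Cap-Kdr cluster then held 498 and 511 KO cells and 2 to 4 cells from each WT library, and a fibroblast-like cluster of 359 cells held 0 KO cells. The names of KO cells thus depend in part on this correction. The 5% of cells with the highest simulated-doublet score in each library were marked as likely doublets and kept. UMIs were summed per library and population of at least 10 cells. Tests on these counts used edgeR 4.0.16 (filterByExpr, TMM, quasi-likelihood, Benjamini-Hochberg over all genes) in R 4.3.3. DESeq2 1.42.0 was an alternative, as were other normalisation, filters, doublet removal, cluster settings, marker scores, the replicate block and leaving out each library. Interactions were contrasts in 1 fit over populations. The scripts were tested on simulated data. Python 3.11.15 with numpy 2.4.6, scipy 1.17.1 and pandas 2.3.3 was used, and exact 95% binomial and Poisson intervals cover counting error only. With 0 counts the floor was 3 counts.

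The genes named were all 10 members in each population, the 3 other chemokine genes with the highest CPM per population and the 2 largest rises and falls of such genes among the calls of a comparison, the 2 genes most like each member by Pearson's r (mean of at least 10 CPM in a population, pseudocount 1), *Acvrl1*, and markers where a label was checked. The members and lists were chosen with earlier results of these data known.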

Additional observations from a re-analysis of the deposited data

Results flagged for a closer look

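The response of a gene differed between vessel or cell types in 8 tests of an interaction with edgeR's quasi-likelihood test, each given with its adjusted p in the report. Between stages, the log2 difference in blood minus lymphatic ECs was -1.41 for *Cxcl12* and -3.34 for *Ccl7*, and that in ECs minus perineurial-like cells was -2.30 for *Ccl7*. Between Alk1 KO and WT telogen, blood minus lymphatic ECs gave -1.96 for *Cxcl12* and -2.88 for *Ccl7*, and ECs minus perineurial-like cells gave -1.77 for *Cxcl12*, -2.65 for *Ccl7* and -1.12 for *Ackr3*. The calls of *Cxcl12* and *Ackr3*, and the KO call of *Ccl7* against perineurial-like cells, did not hold whichever library was left out. Without WT telogen S1 that of *Ackr3* was 0.189. *Ccl7* of blood ECs had few UMIs, and in WT Artery and Vein it was near the level that immune RNA would carry.

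Members were also found in cells outside the comparisons, which markers left without a name. The 584 unnamed ECs held 6258 UMIs of *Cxcl12* (1890 CPM). In the unnamed clusters, *Cxcl1* was at 507 CPM in one of 423 cells (647 UMIs), and *Cxcl2* at 397 CPM in one of 187 cells (93 UMIs) and at 1730 CPM in one of 171 cells (372 UMIs). All are far above the level of 3 counts, and no group comparison was made in them.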

How the results depend on the processing

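With edgeR, 8 stage rises of member and population pairs became 21 with no filter on low counts, 4 with a stricter cell filter and 5 with populations from marker scores, and 5 to 14 when 1 library was left out. The 3 stage falls became 20 with no filter, 5 with DESeq2, 13 with the replicate block, 1 with the stricter filter, 5 without likely doublets and 9 with marker scores, and 1 to 16 when 1 library was left out. Over all genes, 536 stage calls became 5254 with no filter, 1189 with DESeq2, 2372 with the block and 306 with the stricter filter, and 674 to 3943 when 1 library was left out. The 3 KO rises became 3 to 5 when 1 library was left out, and the 38 KO falls were 29 to 52 over all alternatives. The 16800 KO calls over all genes became 10477 with DESeq2 and 8248 to 20030 when 1 library was left out. Of the immune comparison, the counts of 25, 58 and 75751 moved by under 1.5 times under every alternative run.

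Of values recomputed for single pairs, 467 KO differences kept their call, 52 lost it and 1 reversed, and 115, 22 and 1 did so for the stage. Reversed were *Ccl2* in Cap-Rgcc between stages (-2.15, marker scores), *Cxcl1* in Vein in the KO (0.25, no correction between libraries), the KO interaction of *Ackr3* between ECs and perineurial-like cells (0.19 without WT telogen S1, and -1.50 at the lowest when 1 library was left out), and, against immune-like cells, *Ccl11* in Proliferative ECs (-5.34, marker scores) and *Cxcl14* in pericyte-like cells (-2.55, stricter filter). The cause was not tested. Replicate numbers did not pair the mice, which were different animals, and same-numbered libraries deviated together by r = -0.0769 to 0.159 (stage) and -0.138 to 0.0330 (KO) over populations. With the replicate block the stage rises were 10, the KO rises 3, the KO falls 41 and the KO calls over all genes 16871.

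With 2 mice a group, members under about 20 CPM rest on few UMIs, and KO fibroblast-like, pericyte-like and perineurial-like cells were few.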

Other observations

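Other chemokine genes marked the same populations in WT. *Ccl21a*, the ligand that draws dendritic cells into lymphatics, was at 17052 ± 5449 CPM (SD, n = 4) in Lymph-Cap and 1420 CPM in Lymph-Col, although its near-identical copies make the level uncertain. The atypical receptor *Ackr1* was at 1436 ± 173 CPM in Vein, and *Cx3cl1*, a membrane-bound ligand of vessels, at 96.3 ± 29.5 CPM in Artery. The scavengers *Ackr2* and *Ackr4* were at 71.7 and 32.9 CPM in Lymph-Cap. *Cxcl10*, induced by interferon, was at 287 CPM in fibroblast-like cells, 238 CPM in Vein and 145 CPM in Cap-Rgcc.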
